A study of Mus musculus with 6 samples.

Results

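Genes that drive the cell through its division cycle and copy its DNA were followed in the mouse pancreas during acute pancreatitis (AP). The set holds 50 genes chosen by name, and all 50 have values among the 22556 genes measured. By the stage at which they act they were divided into 5 G1 genes (D cyclins and their kinases), 6 G1/S genes (E cyclins, Cdk2 and E2F factors), 17 S phase genes (replication) and 22 G2/M genes (mitosis). RNA of the whole pancreas was sequenced in 6 samples from wild-type C57BL/6 mice aged 8 weeks, with 2 samples in each of 3 groups. Saline mice served as controls, caerulein AP mice received repeated injections of caerulein, a peptide that overstimulates pancreatic acinar cells, and polyI:C-pretreated AP mice received polyI:C (synthetic double-stranded RNA) ahead of caerulein. By the methods of the study, the pancreas was taken on the day after the first caerulein injection. No group analysed here received polyI:C without caerulein, so an effect of polyI:C alone on these genes cannot be told apart from its effect during AP. The labels do not say how the replicate samples of a group were obtained beyond their numbers, and each sample is called a mouse here. The p-values measure the spread between these samples, pooled over the 3 groups.

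A resting cell enters the cycle when D cyclins bind Cdk4 or Cdk6 and the retinoblastoma proteins release E2F factors, which switch on the genes for DNA replication. In S phase the MCM complex unwinds the DNA, PCNA clamps the polymerases to it, and ribonucleotide reductase and thymidylate synthase supply the nucleotides. In G2 and mitosis, cyclins A and B activate Cdk1, and kinesins, centromere proteins and the spindle checkpoint part the chromosomes. Acinar cells of the adult pancreas are mostly quiescent, and after caerulein injury surviving acinar cells dedifferentiate and re-enter the cycle as the tissue regenerates. Infiltrating leukocytes and stromal cells can also divide, and in RNA of a whole tissue a change in the number of cells of a type and a change in the RNA per cell cannot be told apart.

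Expression is given in TPM, a unit in which reads are divided by gene length and each library is scaled to the same total. Groups were compared with limma on log2(TPM + 0.5), using the 16814 genes whose mean over the 6 libraries reached 1 TPM. To pass the threshold, a gene needed a 2-fold change and an adjusted p (Benjamini-Hochberg, over all tested genes) no higher than 0.05. Of the 50 members, 42 reached that mean and were tested; E2f8, Cdc6, Ccnb1, Foxm1, Aurkb, Kif23, Birc5 and Ube2c were not. The mean includes every group, so a member could enter the test through the group in which it was high. The libraries were estimated to hold 3299029 to 10861018 reads, fewest in the saline mice, where 1 read of a gene of median length was worth 0.216 and 0.265 TPM. The TPM values of all genes were shifted between the groups: between AP and saline mice the median log2 fold change of tested genes was 0.45, and 0.06 after the libraries were scaled by the median of ratios. With that scaling, AP against saline had 1566 genes higher and 1220 lower, in place of 3053 and 677.

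The library of polyI:C-pretreated AP mouse 2 stood apart. Its 12 markers of small intestinal enterocytes summed to 4859 TPM, against 4.76 to 8.84 TPM in the other 5 libraries. The fatty acid binding protein gene Fabp1 was at 1430 TPM there and between 0 and 3.35 TPM elsewhere. Of 8 goblet and crypt markers, Olfm4 reached 79.5 TPM in this library, while the stem cell genes Lgr5 and Ascl2 were at 0.461 and 0 TPM. The main results of the members in the polyI:C group are therefore given with and without this mouse, and most other values with both mice only. AP mouse 2 had the highest sum of 9 lymphocyte markers, 27.9 TPM against 5.32 to 10.8 TPM elsewhere, and of 4 spleen and lymph node macrophage markers, 184.8 TPM against 6.04 to 60.9 TPM. These intestinal and splenic lists were chosen after the values had been seen.

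Replication genes rose together in AP. Of the 16 S phase members tested, 14 passed the threshold as higher in AP than in saline mice and none as lower. Over all tested genes, 18.2% passed as higher and 4.03% as lower. The median log2 difference over all 17 S phase members was 1.52, against 0.33 over all listed genes, and with median-of-ratios scaling the 2 medians were 1.13 and 0.02. Summed over the 17 genes, expression was 132.3 and 130.6 TPM in saline mice and 385.5 and 418.0 TPM in AP mice. In 16 of the 17 genes both AP mice were above both saline mice, a separation seen in 43.9% of all listed genes.

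**Figure D1:**
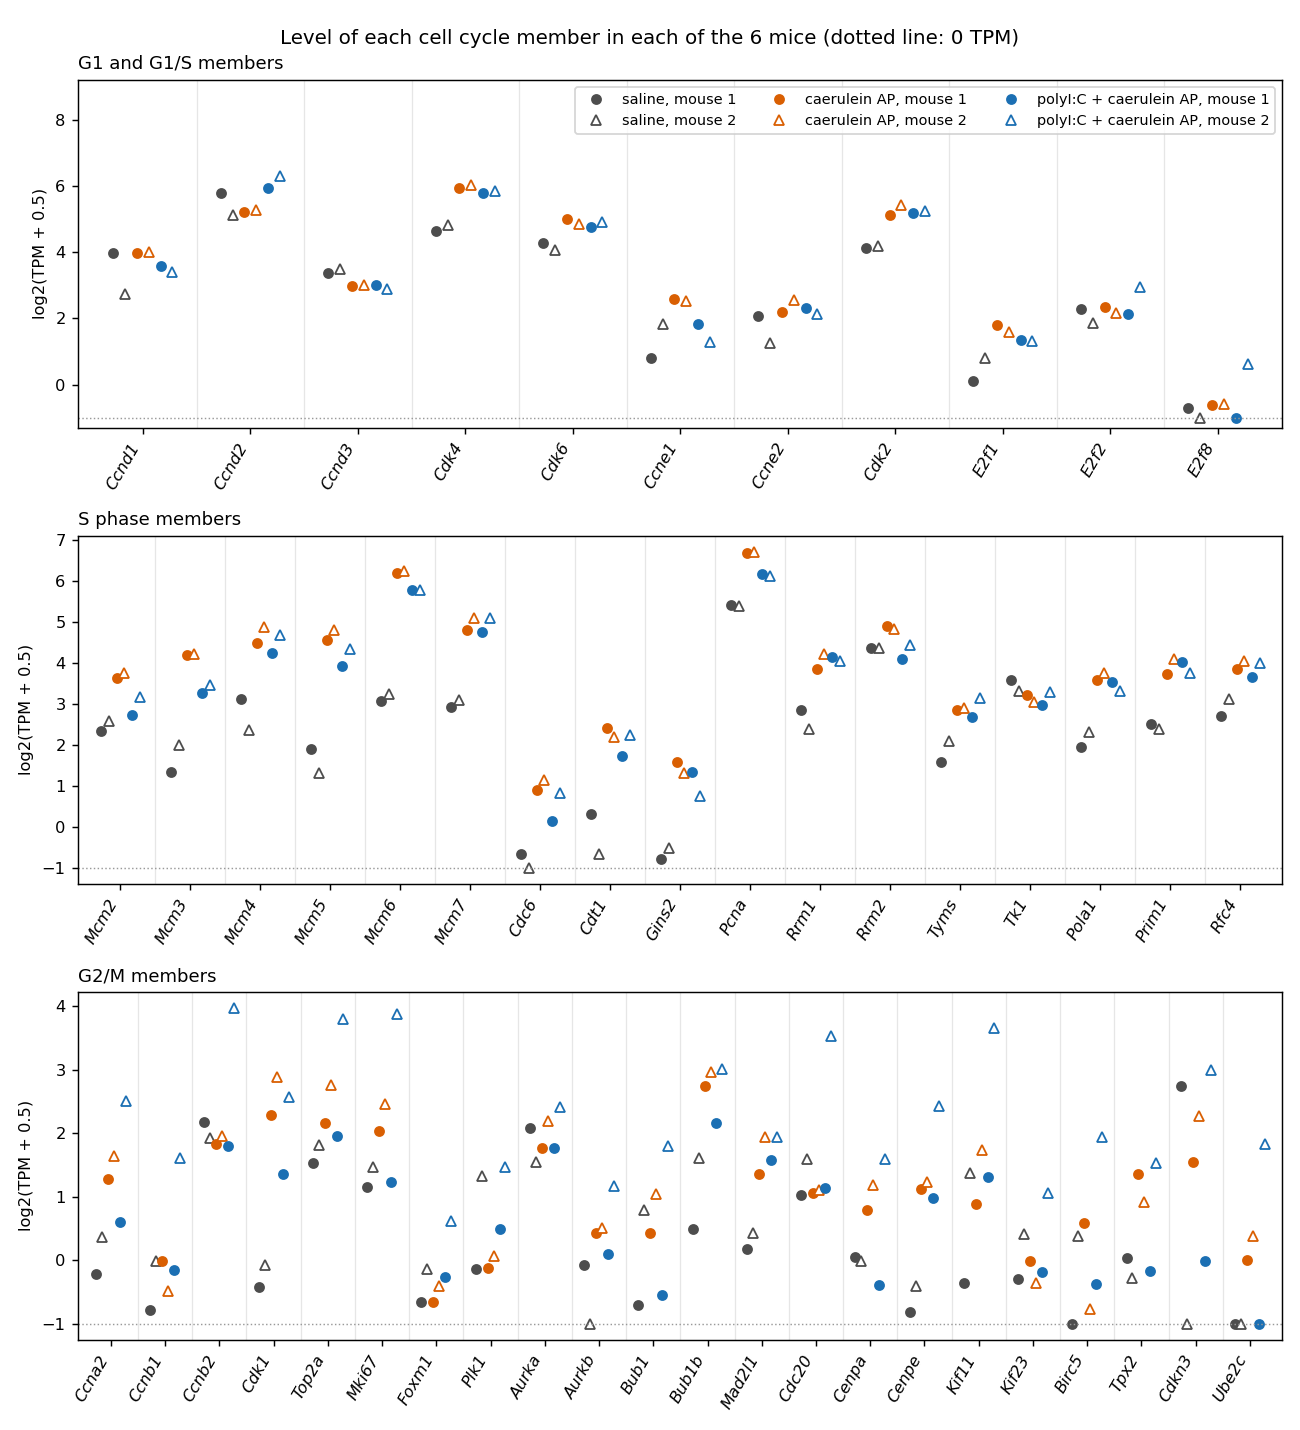
Expression of each of the 50 members in each of the 6 mice, as log2(TPM + 0.5) on the vertical axis with the genes side by side, in panels for G1 and G1/S, S phase and G2/M; colour marks the group, filled circles mouse 1 and open triangles mouse 2. The orange and blue points of most S phase genes lie above the grey ones, and in the G2/M panel the blue triangle, polyI:C-pretreated AP mouse 2, is the highest point of 21 of the 22 genes.

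The MCM genes, which encode the ring-shaped helicase that opens DNA at replication origins, all rose. Mcm6 (ENSMUSG00000026355, chromosome 1 of GRCm38, 128331590 to 128359664, on the minus strand) had values of 7.93 and 8.93 TPM in saline mice, 73.4 and 75.4 TPM in AP mice, and 55.2 and 54.9 TPM with polyI:C. The AP mice were far above the saline mice with little spread within either group, and its log2 fold change was 3.07 (standard error 0.11, limma adjusted p = 2.1e-05). Mcm5 (ENSMUSG00000005410, chromosome 8, 75109569 to 75128439, on the plus strand) had values of 3.23 and 1.98 TPM in saline mice, 23.2 and 27.7 TPM in AP mice, and 14.8 and 19.7 TPM with polyI:C. The 3 groups did not overlap, and its log2 fold change in AP was 3.09 (standard error 0.25, limma adjusted p = 0.00027).

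Among the other 4 helicase subunits, Mcm3 was at 2.05 and 3.49 TPM in saline mice, 17.9 and 18.4 TPM in AP mice, and 9.23 and 10.7 TPM with polyI:C, with a log2 fold change of 2.55 in AP (standard error 0.26). Mcm7 was at 7.16 and 8.05 TPM in saline mice, 27.7 and 34.2 TPM in AP mice, and 26.8 and 34.0 TPM with polyI:C. Mcm4 was at 8.21 and 4.69 TPM in saline mice, 22.0 and 29.3 TPM in AP mice, and 18.5 and 25.4 TPM with polyI:C. In AP mice, Mcm7 and Mcm4 changed by 1.95 each on the log2 scale. Mcm2 changed least, from 4.55 and 5.50 TPM in saline mice to 11.9 and 13.0 TPM in AP mice (log2 fold change 1.23, standard error 0.20, limma adjusted p = 0.0036), and its call was lost with median-of-ratios scaling, where the change was 0.83.

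Factors that load the helicase or start it were low in saline mice. Cdt1, which loads the MCM ring, was at 0.745 and 0.131 TPM in saline mice, 4.87 and 4.08 TPM in AP mice, and 2.85 and 4.24 TPM with polyI:C. Its saline values rest on at most 3 estimated reads, and its log2 fold change of 2.48 in AP (standard error 0.46, limma adjusted p = 0.0057) moved to 3.37 with a pseudocount of 0.1 and 1.96 with a pseudocount of 1. Gins2, a subunit of the GINS complex that activates the helicase, was at 0.0823 and 0.203 TPM in saline mice, at most 1 estimated read, 2.53 and 2.00 TPM in AP mice, and 2.02 and 1.20 TPM with polyI:C, and its log2 fold change of 2.11 in AP (standard error 0.46, limma adjusted p = 0.011) was 3.32 and 1.51 with these pseudocounts. The loading factor Cdc6 stayed below the mean needed for the test, at 0.135 and 0 TPM in saline mice, 1.38 and 1.71 TPM in AP mice, and 0.601 and 1.28 TPM with polyI:C.

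At the replication fork, Pcna, the sliding clamp, was at 42.8 and 41.7 TPM in saline mice, 103 and 105 TPM in AP mice, and 72.3 and 69.4 TPM with polyI:C. It had the highest level of the S phase genes in every library, on the per-length scale of TPM, and its log2 fold change in AP was 1.29 (standard error 0.10, limma adjusted p = 0.00024). Rrm1, Pola1, Prim1, Tyms and Rfc4 also passed the threshold, with log2 fold changes between 1.03 and 1.52. Rrm1 is the large subunit of ribonucleotide reductase, Pola1 and Prim1 belong to the polymerase that primes new strands, Tyms makes thymidylate, and Rfc4 loads the clamp. The calls of Pcna, Tyms and Rfc4 were lost with median-of-ratios scaling, with changes of 0.87, 0.65 and 0.63.

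The nucleotide supply genes did not move as one. Rrm2, the small subunit of ribonucleotide reductase, was at 20.1 and 20.4 TPM in saline mice, 29.3 and 28.0 TPM in AP mice, and 16.7 and 21.2 TPM with polyI:C. Both AP mice were above all other mice, but the log2 difference of 0.49 (standard error 0.17, limma adjusted p = 0.059) did not pass. With median-of-ratios scaling the Rrm2 difference was 0.07. The thymidine kinase gene Tk1 was at 11.5 and 9.47 TPM in saline mice, 8.87 and 7.74 TPM in AP mice, and 7.38 and 9.36 TPM with polyI:C. Tk1 was lower in every AP mouse, with or without polyI:C, than in both saline mice. Its log2 difference was -0.31 in each group (limma adjusted p = 0.27 and 0.28). With median-of-ratios scaling the differences were -0.72 and -0.74 (limma adjusted p = 0.037 and 0.039), short of the required fold.

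**Figure D2:**
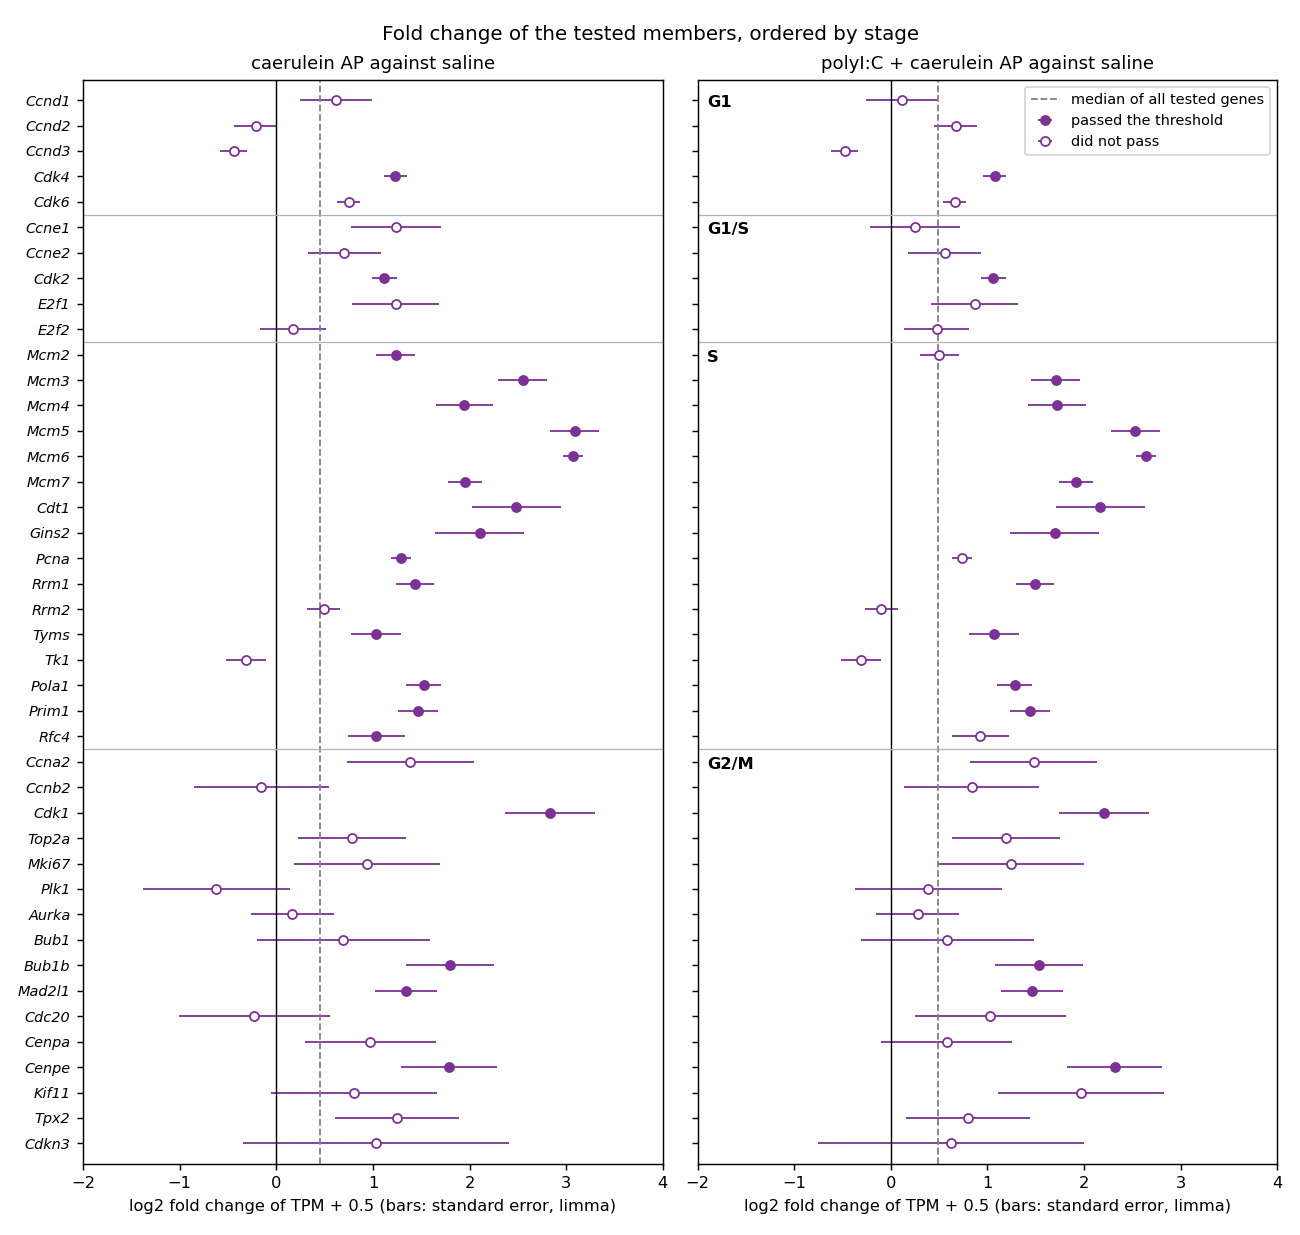
Log2 fold changes of the 42 tested members against saline mice, in caerulein AP mice on the left and polyI:C-pretreated AP mice on the right, with standard errors from limma as bars; filled points passed the threshold, and the dashed line is the median of all tested genes (0.45 left, 0.48 right). The filled points lie mainly in the S phase block, with 14 on the left and 11 on the right, and the D cyclins Ccnd1, Ccnd2 and Ccnd3 are open in both panels.

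Promoter sequence is shown for members that moved and for members that did not, because these genes are textbook targets of E2F factors (S phase genes) and of the complexes that bind CHR and CCAAT boxes (G2/M genes). RefSeq promoters of GRCm38.p6, spanning 250 bases before to 50 bases after the annotated start, were found for 41 of the 50 members. Below, the 160 bases before the start are given 5′ to 3′ on the strand of the gene. Capitals mark the letters of any of 3 motifs on either strand: the E2F site (TTTCCCGC, TTTGGCGC, TTTCGCGC or TTTGCCGC), the CHR element (TTTGAA) and the CCAAT box (CCAAT). Forms of the E2F site on opposite strands can overlap, as in Mcm5 and Mcm6. The windows are chr8:75109349-75109508 (plus strand) for Mcm5, chr1:128359706-128359865 (minus) for Mcm6, chrX:93632156-93632315 (minus) for Pola1, chr10:69352913-69353072 (minus) for Cdk1, chr19:37376222-37376381 (plus) for Kif11 and chr4:118437344-118437503 (minus) for Cdc20.
Mcm5: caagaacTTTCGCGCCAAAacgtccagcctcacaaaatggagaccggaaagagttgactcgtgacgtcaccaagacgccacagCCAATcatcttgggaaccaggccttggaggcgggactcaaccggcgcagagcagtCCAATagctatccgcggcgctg
Mcm6: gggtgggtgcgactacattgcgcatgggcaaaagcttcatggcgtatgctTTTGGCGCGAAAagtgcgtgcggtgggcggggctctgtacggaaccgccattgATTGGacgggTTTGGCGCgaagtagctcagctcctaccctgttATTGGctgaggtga
Pola1: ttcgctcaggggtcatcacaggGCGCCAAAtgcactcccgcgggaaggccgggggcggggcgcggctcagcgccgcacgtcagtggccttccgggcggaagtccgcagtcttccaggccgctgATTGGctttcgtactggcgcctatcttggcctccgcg
Cdk1: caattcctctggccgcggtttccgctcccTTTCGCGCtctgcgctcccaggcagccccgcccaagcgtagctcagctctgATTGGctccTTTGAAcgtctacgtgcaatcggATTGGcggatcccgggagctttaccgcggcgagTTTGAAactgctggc
Kif11: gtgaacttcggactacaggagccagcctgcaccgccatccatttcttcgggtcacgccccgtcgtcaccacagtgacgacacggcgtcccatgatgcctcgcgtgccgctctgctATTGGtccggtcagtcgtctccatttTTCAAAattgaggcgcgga
Cdc20: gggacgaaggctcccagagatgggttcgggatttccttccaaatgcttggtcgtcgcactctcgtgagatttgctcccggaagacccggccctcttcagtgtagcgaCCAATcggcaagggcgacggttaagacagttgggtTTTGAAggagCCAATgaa
An E2F match lay in the promoter of 6 of 15 S phase members (40%) and 1 of 18 G2/M members (5.56%), against 2.34% of all 27025 promoters. Mcm6 had 3 matches, overlapping forms counted separately, Mcm5 and Mcm3 had 2 each, and Cdk1 was the G2/M member with a match. A CHR match lay in 13 of 18 G2/M members (72.2%) and 1 of 15 S phase members (6.67%), against 18.1% of all promoters. All 13 of those G2/M promoters also held a CCAAT box, a combination found in 7.01% of all promoters. The 3 G1 promoters, those of Ccnd3, Cdk4 and Cdk6, held none of these letters. A match describes letters in the window and does not show binding.

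Among the genes that act before S phase, Cdk4 and Cdk2 rose and no cyclin passed the threshold. Of the 5 G1 members tested, 1 passed in AP compared with saline, and of the 5 G1/S members tested, 1 passed, a share near the 18.2% of all tested genes. Both encode cyclin-dependent kinases. Cdk4 (ENSMUSG00000006728, chromosome 10, 127063534 to 127067920, on the plus strand), the partner of D cyclins, was at 24.5 and 28.0 TPM in saline mice, 60.02 and 64.01 TPM in AP mice, and 54.6 and 56.7 TPM with polyI:C. All 4 AP mice, with or without polyI:C, were above both saline mice, with log2 fold changes of 1.23 (standard error 0.12, limma adjusted p = 0.00048) and 1.08 (limma adjusted p = 0.00085). Cdk2, the partner of E cyclins, was at 16.9 and 17.7 TPM in saline mice, 34.3 and 42.2 TPM in AP mice, and 36.1 and 37.0 TPM with polyI:C, with a log2 fold change of 1.12 in AP (standard error 0.13, limma adjusted p = 0.00090). With median-of-ratios scaling the changes in AP mice were 0.80 for Cdk4 and 0.69 for Cdk2, under the fold change required.

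Cdk6, the other kinase of D cyclins, was at 18.8 and 16.3 TPM in saline mice, 31.3 and 28.3 TPM in AP mice, and 26.4 and 29.6 TPM with polyI:C. Its log2 difference of 0.75 in AP (standard error 0.12, limma adjusted p = 0.0031) was below the required fold, and it was 0.33 with median-of-ratios scaling. Among the D cyclins, which link growth signals to the cycle, Ccnd1 was at 15.2 and 6.19 TPM in saline mice, 15.1 and 15.4 TPM in AP mice, and 11.4 and 9.99 TPM with polyI:C. The saline mice were so far apart that their range covered the other groups. Ccnd2 was at 54.1 and 34.1 TPM in saline mice, 36.2 and 37.9 TPM in AP mice, and 60.6 and 77.7 TPM with polyI:C, higher in both polyI:C-pretreated mice than in any other mouse. Its log2 difference of 0.88 between polyI:C-pretreated AP and AP mice (standard error 0.22) had a limma adjusted p of 0.14. Ccnd3 was at 9.92 and 10.6 TPM in saline mice, 7.29 and 7.59 TPM in AP mice, and 7.55 and 6.96 TPM with polyI:C. It was lower in all 4 AP mice than in both saline mice, with log2 differences of -0.44 in AP and -0.48 with polyI:C (limma adjusted p = 0.045 and 0.035), short of the required fold. With median-of-ratios scaling the differences were -0.85 and -0.91 (limma adjusted p = 0.0044 and 0.0039), and with voom -0.71 and -0.78.

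The E cyclins and E2F factors were at few TPM. Ccne1, which activates Cdk2 at the start of S phase, was at 1.24 and 3.05 TPM in saline mice, 5.44 and 5.26 TPM in AP mice, and 3.06 and 1.96 TPM with polyI:C. The AP mice were above all others, with a log2 difference of 1.24 (standard error 0.47, limma adjusted p = 0.076) that did not pass. E2f1, an activating E2F factor, was at 0.584 and 1.26 TPM in saline mice, 2.995 and 2.53 TPM in AP mice, and 2.04 and 2.01 TPM with polyI:C, and its log2 difference of 1.24 in AP did not pass either (limma adjusted p = 0.069). E2f8, a repressor that is itself made in S phase, was between 0 and 0.174 TPM in 5 libraries and at 1.04 TPM in polyI:C-pretreated AP mouse 2. The signs of the differences of E2f2, Aurka and Ccnb1 in AP against saline mice turned with median-of-ratios scaling, as did those of Ccnd1, Ccne1 and Aurka between the polyI:C and saline groups and of Tk1 between the AP groups. None of these differences had passed, and no called member changed sign.

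Of 16 tested G2/M members, 4 passed the threshold in AP compared with saline, all higher, a share of 25% beside the 18.2% of all tested genes. When polyI:C-pretreated AP mouse 2 was left out, only 12 G2/M members reached the mean needed for the test. Plk1, Bub1, Cenpa and Tpx2 entered through that library, so the share of 25% depends on it. Both AP mice were above both saline mice in 11 of the 22, beside 43.9% of all listed genes, and the median log2 difference over all 22 was 0.87. In each AP mouse 7 of the 22 genes were under 1 TPM, and in the saline mice 16 and 13 of them were. Cdk1 (ENSMUSG00000019942, chromosome 10, 69335146 to 69352938, minus strand), the kinase that starts mitosis, was at 0.246 and 0.454 TPM in saline mice, 4.37 and 6.92 TPM in AP mice, and 2.06 and 5.45 TPM with polyI:C. Its saline values rest on 2 and 3 estimated reads. The log2 fold change in AP was 2.83 (standard error 0.47, limma adjusted p = 0.0035), with 3.68 and 2.28 for pseudocounts of 0.1 and 1, and voom on the estimated reads left an adjusted p of 0.050, just past the limit.

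The other 3 G2/M members that passed act at the centromere and in the spindle checkpoint. The checkpoint kinase gene Bub1b was at 0.907 and 2.55 TPM in saline mice, 6.20 and 7.28 TPM in AP mice, and 3.97 and 7.57 TPM with polyI:C. Mad2l1, which holds back chromosome separation until every chromosome is attached, was at 0.633 and 0.856 TPM in saline mice, 2.08 and 3.35 TPM in AP mice, and 2.504 and 3.36 TPM with polyI:C. Cenpe, a kinesin of the centromere, was at 0.0701 and 0.259 TPM in saline mice, 1.68 and 1.86 TPM in AP mice, and 1.48 and 4.90 TPM with polyI:C. Their log2 fold changes in AP were 1.80, 1.35 and 1.78 (limma adjusted p = 0.019, 0.015 and 0.028). The saline values of Cenpe rest on 1 and 3 estimated reads. With median-of-ratios scaling the changes of Bub1b, Mad2l1 and Cenpe were 1.45, 1.05 and 1.60, with limma adjusted p of 0.059, 0.050 and 0.054, just past the limit. With voom the changes were 1.85, 1.52 and 2.95 (limma adjusted p = 0.073, 0.078 and 0.18) and that of Cdk1 was 3.41, so no G2/M call held although the changes were as large.

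Widely used marks of dividing cells did not pass in AP. Mki67, which encodes the Ki-67 antigen, was at 1.72 and 2.28 TPM in saline mice, 3.62 and 5.01 TPM in AP mice, and 1.84 and 14.2 TPM with polyI:C. Top2a, the topoisomerase that untangles chromosomes, was at 2.41 and 3.03 TPM in saline mice, 3.97 and 6.28 TPM in AP mice, and 3.37 and 13.4 TPM with polyI:C. Both genes were higher in each AP mouse than in each saline mouse, with log2 differences of 0.94 and 0.78 and limma adjusted p of 0.37 and 0.32. The fit shares 1 estimate of the spread of a gene over all groups. The wide gap between the polyI:C-pretreated mice therefore enters these p-values, which do not describe the AP and saline mice alone. Ccna2, the A cyclin of S phase and G2, was at 0.367 and 0.790 TPM in saline mice, 1.95 and 2.63 TPM in AP mice, and 1.02 and 5.20 TPM with polyI:C.

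Ccnb1, Foxm1 and Birc5 rest on at most 7 estimated reads in each saline and AP library. The B cyclin gene Ccnb1 was at 0.0803 and 0.493 TPM in saline mice, 0.494 and 0.217 TPM in AP mice, and 0.402 and 2.56 TPM with polyI:C. Foxm1, a transcription factor of G2/M genes, was between 0.135 and 0.414 TPM in 5 libraries and at 1.04 TPM in polyI:C-pretreated AP mouse 2. Birc5, which encodes survivin, was at 0 and 0.808 TPM in saline mice, 1.01 and 0.0887 TPM in AP mice, and 0.274 and 3.34 TPM with polyI:C. No difference between saline and AP mice was detectable at this depth for these 3 genes.

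PolyI:C pretreatment changed no member past the threshold compared with AP alone. Among the 42 tested members, 0 were higher and 0 lower by limma, and voom also gave 0, against 0.44% higher and 0.404% lower of all tested genes. At an unadjusted p under 0.05, 5 of 16 tested S phase members were lower, Mcm2, Mcm3, Mcm6, Pcna and Rrm2, and none was higher, against 6.07% lower and 7.83% higher of all tested genes. Among the other tested members, Ccnd2 was higher at that level. Pcna came closest, with a log2 difference of -0.55 (standard error 0.10, limma adjusted p = 0.067). With voom, the differences of Pcna, Mcm6 and Mcm3 were -0.59, -0.46 and -0.89 with limma adjusted p of 0.021, 0.036 and 0.037, past the limit on p and short of the required fold. Over all 17 S phase members the median log2 difference was -0.32, against 0.03 over all listed genes, and it was -0.19 without polyI:C-pretreated AP mouse 1, -0.43 without polyI:C-pretreated AP mouse 2 and -0.41 without AP mouse 2. In 8 of the 17 both polyI:C-pretreated mice were below both AP mice, as in 19.8% of all listed genes, and in none were both above, as in 24.1%. Over all 50 members the counts were 12 lower and 4 higher. This comparison and the one of AP with saline share the 2 AP mice, so an error in these mice enters both.

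Compared with saline mice, polyI:C-pretreated AP mice also had higher replication genes. Of the 42 tested members, 17 passed as higher and none as lower, against 16.9% and 2.97% of all tested genes. They comprised 11 S phase genes, 4 G2/M genes, Cdk4 and Cdk2. The median log2 difference over the 17 S phase members was 1.44, or 1.498 without mouse 2, against 0.38 over all listed genes. Mcm6 and Mcm5 changed by 2.64 and 2.53, with limma adjusted p of 2.9e-05 and 0.00058, and by 2.64 and 2.33 without mouse 2 (limma adjusted p = 0.0037 and 0.014). Mcm2 was at 6.21 and 8.58 TPM with polyI:C, between the saline and the AP mice, and did not pass (log2 difference 0.50, limma adjusted p = 0.095).

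Without polyI:C-pretreated AP mouse 2, 9 members passed against saline mice in place of 17. They were Cdk4, Cdk2, Mcm3, Mcm5, Mcm6, Mcm7, Rrm1, Pola1 and Prim1. The remaining mouse is then assumed to vary like the other groups. None of the 4 G2/M members passed without mouse 2: the log2 difference of Cdk1 went from 2.21 to 1.60 (limma adjusted p = 0.063) and that of Cenpe from 2.32 to 1.59 (limma adjusted p = 0.062). The median over all 22 G2/M members was 1.11 with both mice, -0.02 without mouse 2 and 1.99 without mouse 1.

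The mice of the polyI:C group differed in the G2/M genes. All 22 were higher in mouse 2 than in mouse 1, 17 of them by more than 2-fold (77.3%), against 8.55% of all listed genes, and the median log2 difference between the 2 mice was 1.80. Summed over the 22 genes, expression was 30.1 TPM in mouse 1 and 128.4 TPM in mouse 2, against 24.7 and 27.2 TPM in saline mice and 43.2 and 57.4 TPM in AP mice. The kinesin gene Kif11, whose product pushes the spindle poles apart, was at 1.98 and 12.2 TPM in these mice and between 0.284 and 2.84 TPM in the other groups. Cdc20, which switches on the anaphase-promoting complex, was at 1.72 and 11.1 TPM, against 1.54 to 2.53 TPM elsewhere. The B cyclin gene Ccnb2 was at 2.99 and 15.3 TPM, against 3.06 to 4.03 TPM elsewhere.

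The S phase genes of the same mice did not differ in that way. On the log2(TPM + 0.5) scale none of the 17 was more than 2-fold apart between the polyI:C-pretreated mice, and their median log2 difference was 0.33. In 21 of the 22 G2/M genes mouse 2 had the highest value of the 6 libraries, and in 1 of the 17 S phase genes, while it held the highest value of 19.2% of all listed genes. The library with these high G2/M values is also the one with the intestinal markers, all 12 enterocyte markers being at 47.5 TPM or more, and the small intestine renews itself from dividing crypt cells. The part of intestinal RNA in the G2/M values was not tested. Between the AP mice without polyI:C the S phase genes differed by a median log2 of 0.115, and 0 were more than 2-fold apart. AP mouse 2 had the highest value in 12 of 17 S phase genes, beside 19.5% of all listed genes. It also had the highest lymphocyte markers, whose part was not tested. Without it, 9 members passed in AP against saline mice in place of 20 (Cdk4, Mcm3, Mcm5, Mcm6, Mcm7, Pcna, Rrm1, Pola1 and Prim1), with 1 mouse left in the group, and the median of the S phase members was 1.44.

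**Figure D3:**
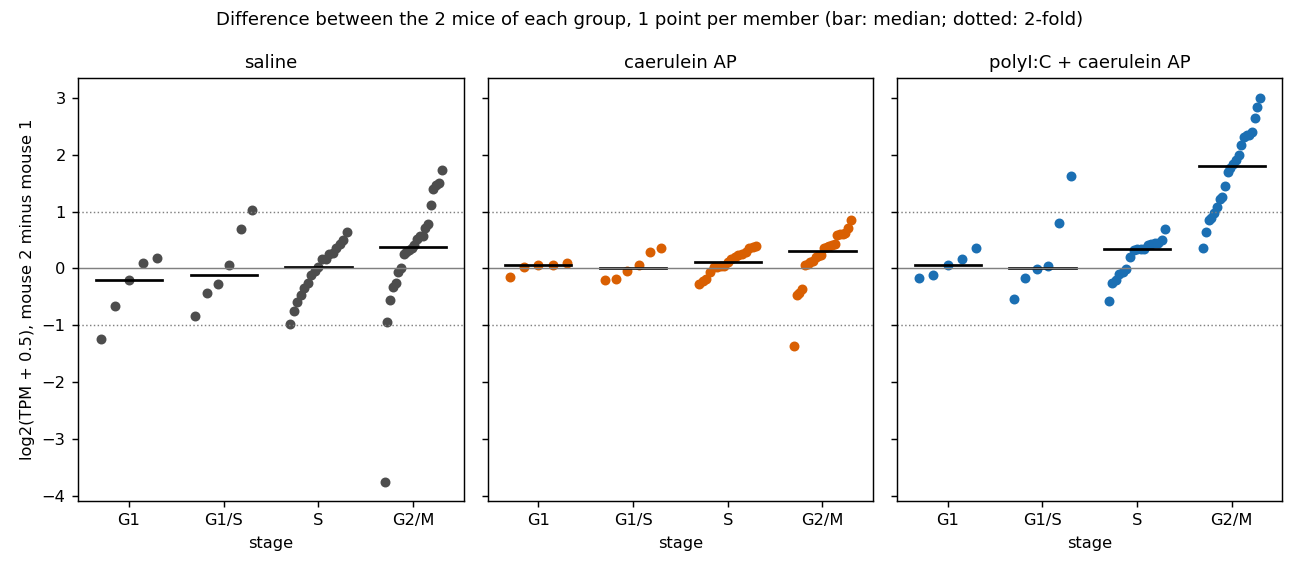
Difference in log2(TPM + 0.5) between mouse 2 and mouse 1 of each group, 1 point per member, by stage; black bars are medians and dotted lines mark a 2-fold difference. In the polyI:C group the G2/M points lie above 0 with a median of 1.80, while the S phase medians of the 3 groups lie between 0.02 and 0.33.

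Some inhibitors of cyclin-dependent kinases rose in AP. Of 6 with values, 3 passed as higher in AP and none as lower, beside 18.2% and 4.03% of all tested genes. With median-of-ratios scaling 2 passed as higher and 1 as lower, and with voom 1 and 1, the lower gene being Cdkn2c, which encodes p18. Cdkn2a was not analysed here. Cdkn1a, which encodes the inhibitor p21 and is a target of p53, was at 38.1 and 33.4 TPM in saline mice, 126.2 and 111.4 TPM in AP mice, and 142.6 and 99.1 TPM with polyI:C. The log2 fold change of Cdkn1a was 1.72 in both groups against saline (standard error 0.18, limma adjusted p = 0.00065 and 0.00073). Cdkn2b, an inhibitor of Cdk4 and Cdk6, was at 3.44 and 1.21 TPM in saline mice, 15.8 and 16.5 TPM in AP mice, and 5.48 and 23.7 TPM with polyI:C. Cdkn1c, which encodes p57, was at 2.11 and 0.650 TPM in saline mice, 6.86 and 5.50 TPM in AP mice, and 3.39 and 1.23 TPM with polyI:C, and its call in AP (log2 fold change 1.94, limma adjusted p = 0.041) was lost with scaling. Cdkn1b, which encodes p27, was at 27.5 and 34.1 TPM in saline mice, 22.0 and 23.5 TPM in AP mice, and 26.3 and 24.5 TPM with polyI:C. Both AP mice were below both saline mice, with a log2 difference of -0.42 (limma adjusted p = 0.059).

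Among 18 pocket proteins, E2F repressors and antiproliferative genes, 6 passed as higher in AP mice and 1 as lower, beside 18.2% and 4.03% of all tested genes. The counts were 3 and 2 with median-of-ratios scaling and 4 and 2 with voom. Btg2, an antiproliferative gene, went from 164.1 and 234.9 TPM in saline mice to 1002 and 922.4 TPM in AP mice, and was at 972.5 and 756.4 TPM with polyI:C. Ccng1, a cyclin induced by p53, was at 132.8 and 129.4 TPM in saline mice, 645.1 and 632.4 TPM in AP mice, and 895.6 and 826.2 TPM with polyI:C, with a log2 fold change of 2.28 in AP (standard error 0.09, limma adjusted p = 2.5e-05). Rbl1, a retinoblastoma relative that represses E2F targets, rose by 1.47. Gas1, a growth arrest gene, changed by -1.14. Tob1, another antiproliferative gene, was the only gene of the lists of cell cycle regulators and of replication and mitosis genes to pass with polyI:C against AP alone: it was at 377.2 and 273.9 TPM in saline mice, 176.1 and 156.7 TPM in AP mice, and 381.0 and 318.0 TPM with polyI:C (log2 fold change 1.06, standard error 0.17, limma adjusted p = 0.049). That call was lost without polyI:C-pretreated AP mouse 2, when no gene of any kind passed in this comparison.

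Of 8 further regulators (Myc, Mycn, Mycl, Max, Ets1, Ets2, Ccnl1 and Cdc37), 3 passed as higher in AP mice and 1 as lower. Over all tested genes, the shares were 18.2% and 4.03%. Myc, which promotes entry into the cycle, was at 13.4 and 6.87 TPM in saline mice, 11.7 and 12.8 TPM in AP mice, and 12.6 and 13.5 TPM with polyI:C. The groups overlapped, and the log2 difference of 0.33 in AP was -0.08 with scaling. Its relative Mycn was at 14.0 and 9.66 TPM in saline mice, 3.01 and 1.44 TPM in AP mice, and 1.49 and 2.57 TPM with polyI:C (log2 fold change -2.22 in AP, standard error 0.41, limma adjusted p = 0.0056). The transcription factor genes Ets1 and Ets2 and the cyclin gene Ccnl1 rose by 1.74, 1.24 and 1.41, and the calls of Ets2 and Ccnl1 were lost with scaling.

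Other replication genes, outside the 50 members, also rose in AP. Of 37 tested, 20 passed as higher and none as lower, beside 18.2% and 4.03% of all tested genes, with a median log2 difference of 1.14 over all 40. Uhrf1, which maintains DNA methylation behind the fork, was at 0.492 and 1.06 TPM in saline mice, 10.2 and 13.8 TPM in AP mice, and 3.29 and 10.7 TPM with polyI:C. Lig1, the ligase that joins new strands, was at 1.47 and 1.54 TPM in saline mice, 8.40 and 8.72 TPM in AP mice, and 8.57 and 8.12 TPM with polyI:C. Dbf4, the activator of the kinase that fires origins, and Rfc3, a subunit of the clamp loader, rose by 2.02 and 1.88. With median-of-ratios scaling 9 of the 37 passed as higher and 1 as lower, and with voom 10 and 0.

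Of 31 tested mitosis genes outside the members, 11 passed as higher in AP and 1 as lower, beside 18.2% and 4.03% of all tested genes. The median log2 difference was 0.85 over all 42, and 8 and 1 passed with median-of-ratios scaling. Ect2, which sets the plane of cell cleavage, was at 0.417 and 0.0641 TPM in saline mice, 7.27 and 7.24 TPM in AP mice, and 8.17 and 7.78 TPM with polyI:C (log2 fold change 3.43, standard error 0.28, limma adjusted p = 0.00027). Smc2, a condensin subunit that compacts chromosomes, was at 3.66 and 2.92 TPM in saline mice, 21.2 and 20.8 TPM in AP mice, and 17.0 and 17.5 TPM with polyI:C. Cdca8, a subunit of the Aurora B complex, was listed at 0 in both saline libraries, at 2.34 and 2.88 TPM in AP mice, while it reached 0.955 and 3.16 TPM with polyI:C. Ndc80, which attaches centromeres to microtubules, rose by 2.54, and its partner Spc24 fell by 1.66.

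Markers of cell types moved with the groups. The 8 ductal markers, among them the keratin gene Krt19, summed to 527.0 and 443.4 TPM in saline mice, 2633 and 2591 TPM in AP mice, and 2334 and 2460 TPM with polyI:C. In AP against saline, 5 of the 8 passed as higher and 0 as lower, beside 18.2% and 4.03% of all tested genes. Their log2 differences ran from -0.49 to 4.17, and with median-of-ratios scaling 3 passed as higher. The 9 myeloid markers summed to 530.0 and 366.0 TPM in saline mice, 2344 and 2598 TPM in AP mice, and 484.5 and 389.7 TPM with polyI:C. The myeloid sums hide members that went opposite ways. With polyI:C against saline, 3 of the 9 passed as higher and 2 as lower, with log2 differences from -1.245 to 3.8. Over all tested genes, 16.9% and 2.97% passed in that comparison. The myeloid calls as lower were lost without polyI:C-pretreated AP mouse 2. The median log2 difference of the 9 against saline was 0.04 with both mice and 0.12 without that mouse. The S phase genes summed to 294.9 and 322.8 TPM with polyI:C, below both AP mice and above both saline mice. Only 7 of 18 acinar markers had values, and these summed to 1732 and 1572, 541.9 and 505.3, and 1215 and 1315 TPM in the 3 groups. With polyI:C against saline, 0 of these 7 passed as higher and 2 as lower, with log2 differences from -2.17 to 0.93. No marker with values in these lists was at 0 in any library, and the part of these cell types in the replication genes was not tested.

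**Figure D4:**
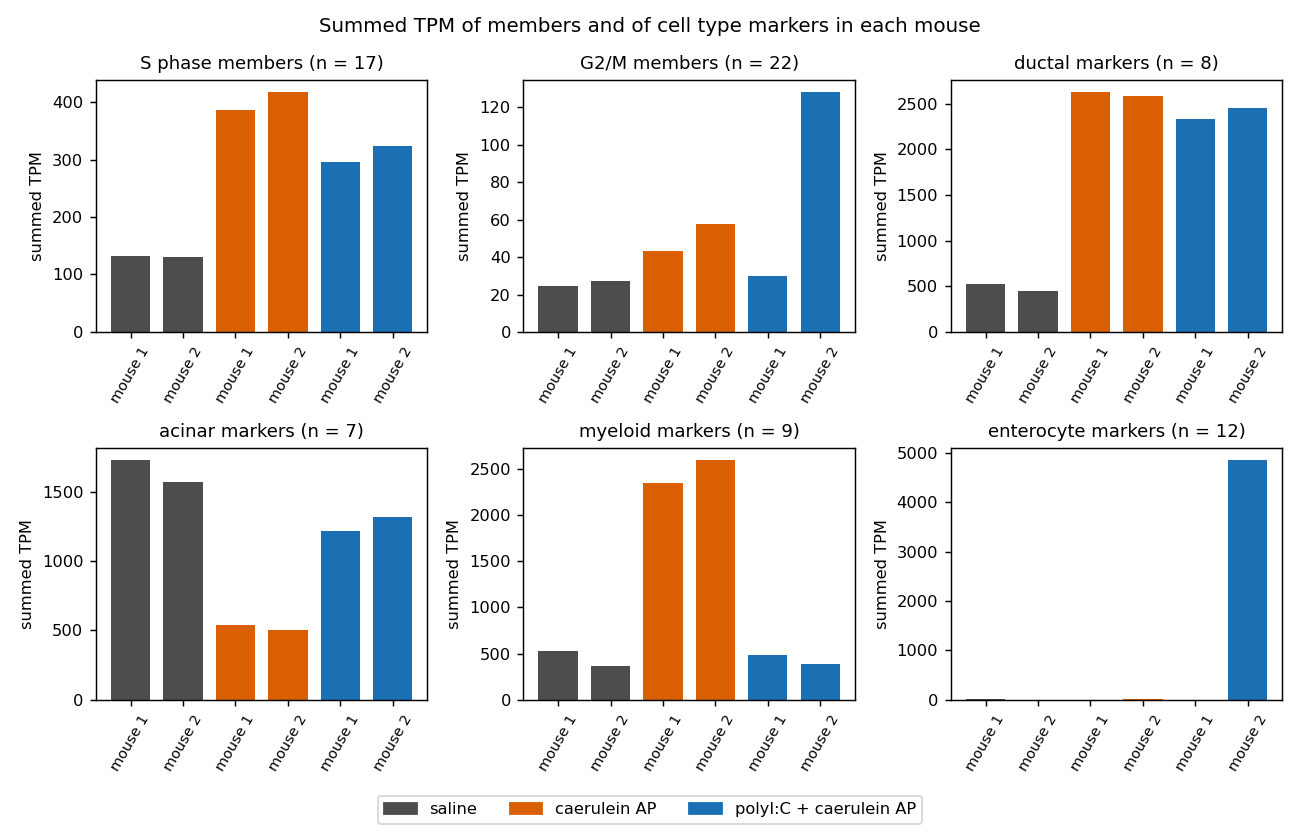
Summed TPM in each mouse of the 17 S phase members, the 22 G2/M members and the ductal, acinar, myeloid and enterocyte markers, with bars coloured by group and each axis starting at 0. The S phase bars are high in both AP groups, the myeloid bars in AP mice without polyI:C, and the tall G2/M and enterocyte bars belong to polyI:C-pretreated AP mouse 2.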

How the data were processed

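RNA of the pancreas was sequenced by the authors in 6 samples, and the authors deposited TPM per gene and sample. Per the labels and the study's methods, reads were trimmed with Trimmomatic, mapped to mm10 with STAR and counted with HTSeq, and DESeq2 was used by the authors for their own comparisons. Versions, the annotation and the step from counts to TPM are not given in the sources used here. The labels name both a ribosomal RNA depletion kit and a stranded mRNA kit.

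Of 22556 Ensembl identifiers, 22490 were found in GENCODE M21 (GRCm38), which gave symbols, coordinates and exon lengths. Groups and replicate numbers came from the sample labels. limma 3.58.1 in R 4.3.3 was fitted to log2(TPM + 0.5) with 1 coefficient per group, all 6 mice and a variance prior on log2(mean TPM × exon length + 1). Genes entered with a mean of 1 TPM or more, and p-values were adjusted over all tested genes. Fold changes on the log2(TPM + 0.5) scale understate the change of low genes. Reads per library were estimated from the spacing of low TPM values (up to 20 reads): multiplied by exon length, 51.2% to 62.4% of these values lay within 0.1 of a whole multiple of 1 step, against 19.2% to 20.7% with shuffled lengths. The estimates serve voom and the depth statements and cover counting only. The fit was tested on simulated data.

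The members, and the lists of other cell cycle genes and of cell type markers, were chosen with earlier results of these data known. Genes named in the text are 20 key members chosen by name, up to 4 further members per stage and comparison past the threshold with the largest change, up to 4 such genes from each list of other cell cycle genes, and Cdkn1a, Cdkn1b, Cdkn1c and Myc. Other members are named to complete a description, after their values were seen. Promoters were taken from RefSeq (GRCm38.p6), the first listed where a gene has several. Alternatives were other pseudocounts, filters, scalings, tests and variance priors, a block for the replicate number, and fits without single mice. Whether same-numbered mice deviate together was checked by the correlation of their deviations from the group means.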

Additional observations from a re-analysis of the deposited data

How the results depend on the processing

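Counts of members past the threshold depended on scaling and on single mice, and no named member that passed changed direction. For AP against saline mice, 20 members passed, with 8 under quantile normalization, 13 with voom, 11 with median-of-ratios scaling and 9 to 21 when single mice were left out. For polyI:C-pretreated AP against saline mice, 17 passed, with 11 under median-of-ratios scaling, 6 under quantile normalization, 9 with voom, 11 with the 2 groups fitted alone and 9 to 18 when single mice were left out. With 1 mouse left in both AP groups (without mouse 2 of each, chosen after the data were seen) 0 passed in either, the variance then resting on the saline mice. For polyI:C-pretreated AP against AP mice, 0 passed under every alternative run. In the main fit only 0.44% of all tested genes passed as higher and 0.404% as lower there, so counts of 0 say little about stability.

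The stage medians of the log2 difference moved with median-of-ratios scaling to 0.21 (G1), 0.51 (G1/S), 1.13 (S phase) and 0.55 (G2/M) in AP against saline, from 0.62, 0.91, 1.52 and 0.87, and to 0.22 (G1), 0.35 (G1/S) and 1.06 (S phase) in polyI:C-pretreated AP against saline, from 0.66, 0.61 and 1.44. A pseudocount of 0.1 gave 0.99 (G1/S) and 1.20 (G2/M) in the former and 0.85 (G1/S) and 1.56 (S phase) in the latter. A pseudocount of 1 gave 0.80 (G1/S) in the former and 0.46 (G1/S) and 1.19 (S phase) in the latter. Without AP mouse 2 the G1/S median was 0.74 against saline. Between the AP groups it was -0.10, and -0.23 to 0.063 when mouse 2 of either group was left out. Without polyI:C-pretreated AP mouse 2 the medians against saline were 0.49 (G1) and -0.023 (G2/M), from 0.66 and 1.11 with all mice, and without mouse 1 of that group the G2/M median was 1.99. The causes were not tested.

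With the replicate block, 20 members passed in AP against saline, 18 in polyI:C-pretreated AP against saline and 0 between the AP groups. Deviations of same-numbered mice correlated with r = 0.0075, 0.035 and -0.0039 across genes in the 3 comparisons, so the numbers were not taken to pair the mice. Depth limits the saline values most: 16 and 13 of 22 G2/M genes were under 1 TPM there.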

Other observations

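Of the remaining marker lists, the 6 neutrophil markers with values summed to 16.6 and 5.15 TPM in saline, 68.2 and 57.9 TPM in AP, and 41.8 and 20.1 TPM with polyI:C. Of 4 neutrophil markers tested, 2 passed as higher in AP against saline and 0 with polyI:C against saline in the limma fit, where 1 had an unadjusted p under 0.05 and voom also gave 0. The 8 stellate and fibroblast markers summed to 889.1 and 636.1, 825.5 and 1024, and 878.4 and 728.9 TPM in these groups. Against saline, 4 passed as higher in AP and 3 with polyI:C, and 0 as lower in either. With median-of-ratios scaling 3 passed as higher and 1 as lower in AP, and 1 and 1 with polyI:C. Their log2 differences ran from -0.73 to 2.74 in AP and from -0.75 to 1.94 with polyI:C. Over all tested genes, 18.2% passed as higher and 4.03% as lower in AP against saline, and 16.9% and 2.97% with polyI:C against saline. The 6 endothelial markers lay between 57.4 and 86.3 TPM and the 8 islet markers between 850.8 and 1641 TPM over the 6 libraries.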
